A study of Mus musculus with 4 samples.

Results

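The clustered protocadherins are a family of cell-surface proteins encoded by 3 neighbouring gene clusters, alpha, beta and gamma, on mouse chromosome 18. The genes were found by their symbols (Pcdha, Pcdhac, Pcdhb, Pcdhga, Pcdhgb or Pcdhgc followed by a number), and the annotation holds 58 of them among 55536 genes: 14 alpha, 22 beta and 22 gamma. Of these 58, 51 were listed in at least 1 complete library and 7 were in none. The readout was whether a gene was listed in a library. The lists carry no count or expression level, and the sequencing depth behind them is unknown.

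Each clustered protocadherin has a row of extracellular cadherin repeats, a single membrane-spanning segment and a cytoplasmic tail, and binds the same isoform on an adjoining cell. In the nervous system each neuron expresses its own combination of isoforms, and this code lets a neuron's branches recognise and avoid one another. An alpha or gamma gene joins its own large first exon, which encodes the extracellular part, to short constant exons shared by its whole cluster, whereas a beta gene lies in a single exon. Promoter choice depends on CTCF, cohesin and DNA methylation, and most alpha proteins, though not Pcdhac2, are known from cultured cells to need a partner isoform to reach the cell surface.

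The libraries came from single-cell RNA sequencing of fetal mouse pancreas on a C57BL/6 background, with cells labelled for EpCAM, an epithelial surface protein, and purified by flow cytometry. The KO embryos carried Setd2 f/f and Pdxcre, a Cre recombinase driven by Pdx regulatory sequence that acts in the pancreatic epithelial lineage, so other cell types in the sort would keep the gene. The WT embryos carried Setd2 f/f without the Cre, and floxed Setd2, the gene of the enzyme that trimethylates lysine 36 of histone H3, was therefore common to all groups. There was 1 library for each of 4 groups, E15.5 KO, E15.5 WT, E13.5 KO and E13.5 WT, and the number of embryos in each is not given in the sources used here. With 1 library per group no difference had a replicate check, and no test was run. In all, 25474 genes were listed in E15.5 KO, 26341 in E13.5 KO and 25463 in E13.5 WT. The E15.5 WT list stopped after 167 entries, before the identifier of any clustered protocadherin (0 of 58 covered), so E15.5 could be described in KO alone. Setd2 was in all 3 complete lists, which does not check the genotype, because a listing does not separate deleted from retained exons. All 12 epithelial and pancreatic markers, Epcam, Cdh1 and Pdx1 among them, were in the 3 complete lists.

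The clusters differed in how completely they were listed. All 22 gamma genes were in each of the 3 complete lists, 20 of 22 beta genes were in all 3, and 0 of 14 alpha genes were in all 3. Of the alpha genes 7 were in 1 or 2 lists and 7 in none. Over all 22028 annotated protein-coding genes, 72.8% were in all 3 lists and 18.5% in none. Taken as a whole the family stood at 42 of 58 in all 3 lists (72.4%), next to that figure, with 22 of 22 gamma and 20 of 22 beta genes on one side and 0 of 14 alpha genes on the other. In E15.5 KO, 5 of 14 alpha, 21 of 22 beta and 22 of 22 gamma genes were listed, against 75.9% of protein-coding genes. In E13.5 KO the counts were 3 alpha, 22 beta and 22 gamma genes, against 77.9%. In E13.5 WT they were 1 alpha, 21 beta and 22 gamma genes, against 77.7%. Each library thus had the same order, with alpha below the protein-coding share and beta and gamma above it.

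**Figure D1:**
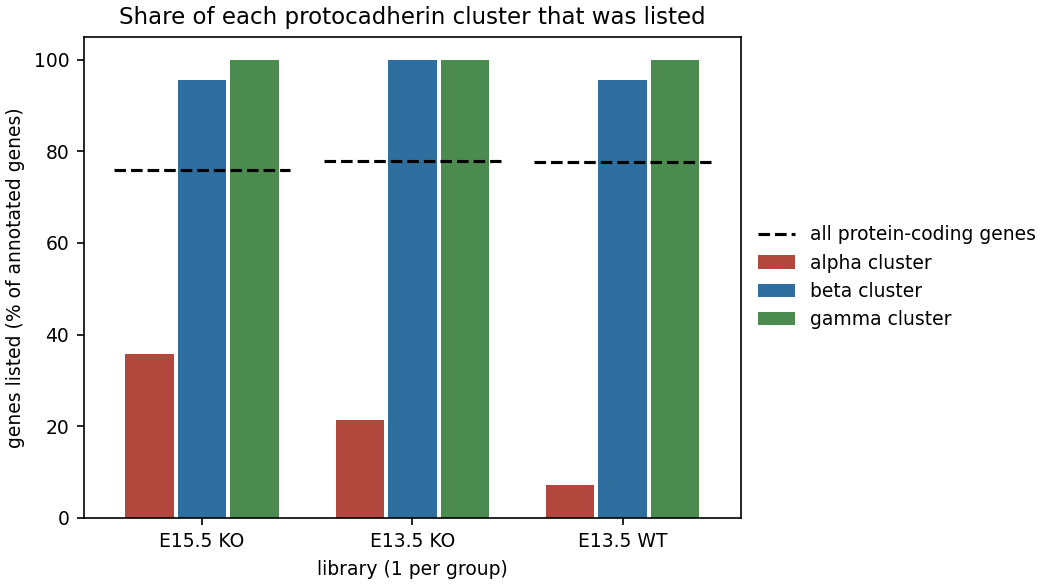
Percent of the annotated genes of each cluster (14 alpha, 22 beta, 22 gamma) that were listed in each of the 3 complete libraries, with a dashed line at the share of all protein-coding genes. The alpha bars stand at 35.7%, 21.4% and 7.14% in E15.5 KO, E13.5 KO and E13.5 WT, below the line, and the beta and gamma bars at 95.5% to 100% above it.

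The gamma cluster (chromosome 18, 37661793 to 37841873, mm10/GRCm38, forward strand) was listed without a gap. It holds the 12 A-type genes Pcdhga1 to Pcdhga12, the 7 B-type genes Pcdhgb1, Pcdhgb2 and Pcdhgb4 to Pcdhgb8, and the 3 C-type genes Pcdhgc3, Pcdhgc4 and Pcdhgc5. Pcdhgb8 is annotated as a polymorphic pseudogene and the other 21 as protein-coding. The C-type genes are a separate branch of the family that neurons use more uniformly than the A- and B-types. Pcdhgc3 is known to bind Axin1 and dampen Wnt signalling, and Pcdhgc4 is the isoform whose loss in mice leads to the death of newborns and of interneurons. All 3 C-type gamma genes were in E15.5 KO, E13.5 KO and E13.5 WT.

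In the beta cluster (37264938 to 37524479) the genes Pcdhb3 to Pcdhb22 were in all 3 lists, and the exceptions were the first 2 genes in chromosomal order. Pcdhb1 (37264938 to 37267525) was listed in E15.5 KO and E13.5 KO and not in E13.5 WT. Pcdhb2 (37294812 to 37297624) was not listed in E15.5 KO and was listed in E13.5 KO and E13.5 WT. These were also among the shortest beta genes. Pcdhb1 has 2588 exonic bases, the fewest of the 22, and Pcdhb2 has 2813, the third fewest. Pcdhb15, with 2801, lies between them in length and was in all 3 lists. Pcdhb21 and Pcdhb22 overlap by 455 exonic bases on the same strand, so a read there cannot be given to one of them, and both were in all 3 lists. Part of Pcdhb12 lies opposite an antisense gene, Gm37446, which was in no list.

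**Figure D2:**
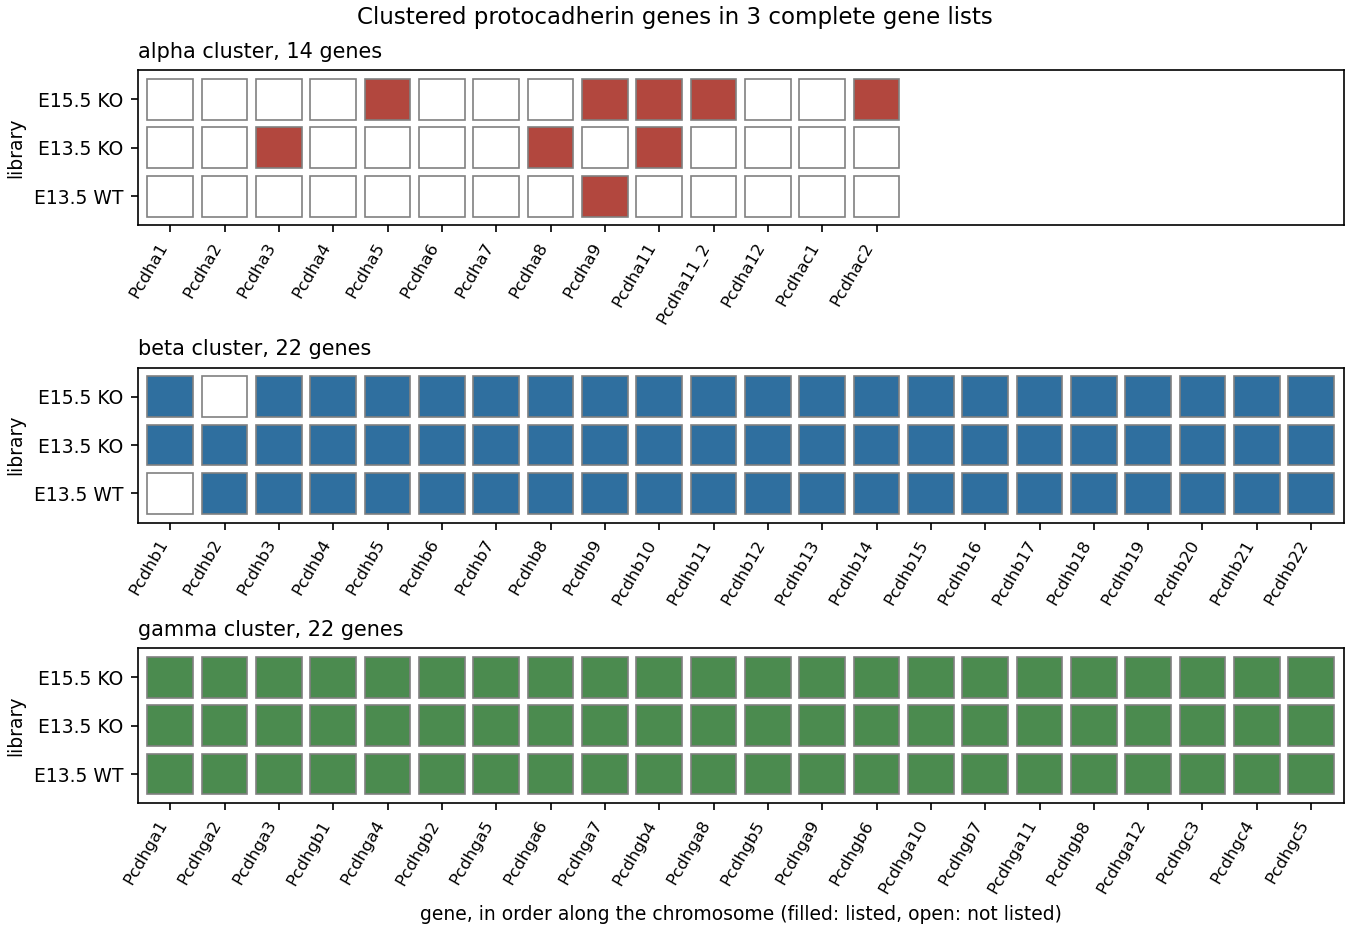
Listing of each of the 58 genes, in chromosomal order within its cluster along the horizontal axis, in the E15.5 KO, E13.5 KO and E13.5 WT libraries from top to bottom; a filled square means listed and an open square not listed. The gamma panel is filled throughout, the beta panel has 1 open square at Pcdhb1 and 1 at Pcdhb2, and the alpha panel has 9 filled squares of 42.

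In the alpha cluster (36930184 to 37187661) no gene was common to all 3 lists. The 7 genes in no list were Pcdha1, Pcdha2, Pcdha4, Pcdha6, Pcdha7, Pcdha12 and Pcdhac1. They start at 36930184, 36939205, 36952648, 36967631, 36973802, 37020149 and 37090013, and all 14 alpha genes end with the shared last exon at 37187657 or 37187661. Pcdha9 (36997880 to 37187657) was the 1 alpha gene of E13.5 WT and was also in E15.5 KO. Pcdha11 (ENSMUSG00000007440, 37005203 to 37187657) was in E15.5 KO and E13.5 KO. Pcdha3 (36946105 to 37187657) and Pcdha8 (36992371 to 37187657) were in E13.5 KO alone. Pcdha5 (36960440 to 37187657), Pcdha11_2 (ENSMUSG00000102206, 37010712 to 37187657) and Pcdhac2 (37143503 to 37187657) were in E15.5 KO alone. Pcdhac2, a C-type gene, is known for spacing the axons of serotonin neurons in mice, and it was 1 of the 2 alpha C-type genes, Pcdhac1 being in no list. Along the cluster, Pcdha8, Pcdha9, Pcdha11 and Pcdha11_2 are neighbours, each in at least 1 list, and Pcdha9, Pcdha11 and Pcdha11_2 were listed together in E15.5 KO. Pcdha3 and Pcdha5 each lie between genes in no list, and Pcdhac2 is the last gene of the cluster.

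A pair of these entries share a symbol in the annotation. The lists call ENSMUSG00000007440 Pcdha11 and ENSMUSG00000102206 Pcdha11_2, with an appended number of the kind that separates repeated names. In RefSeq on GRCm38, the gene that starts 117 bases from ENSMUSG00000007440 is Pcdha10, and the gene that starts 146 bases from ENSMUSG00000102206 is Pcdha11. The other 56 entries had the same symbol as the RefSeq gene with the nearest start. The entry listed in both KO libraries as Pcdha11 is thus at the place of RefSeq Pcdha10, and it is called by its listed symbol here.

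**Figure D3:**
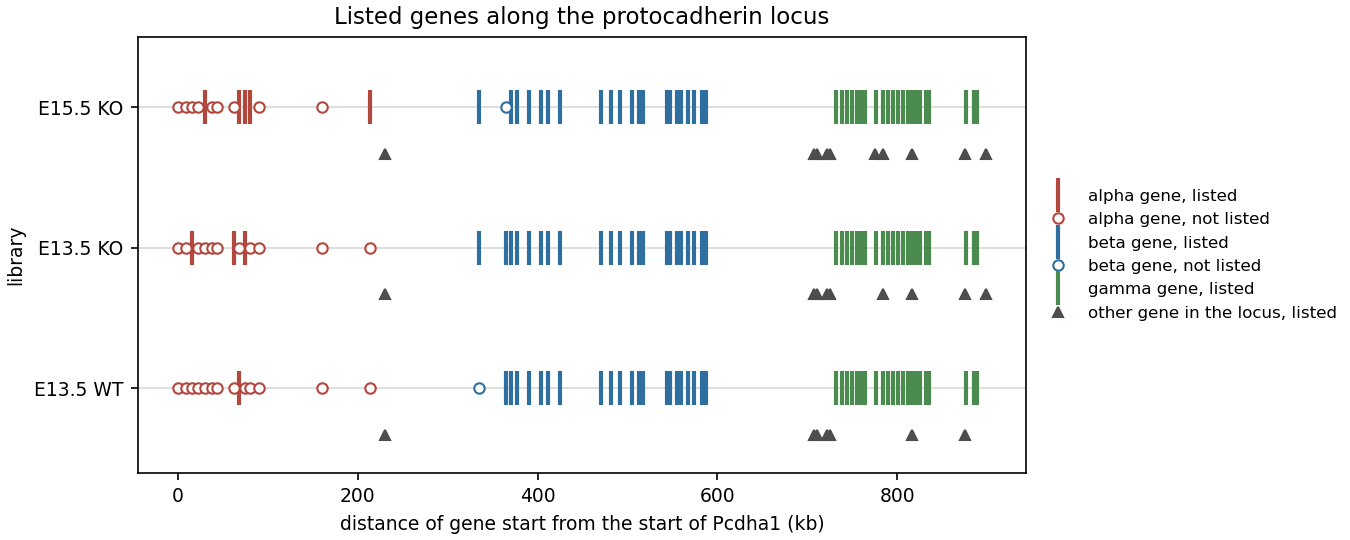
Start of each gene of the locus as distance from the start of Pcdha1 in kilobases, for the E15.5 KO, E13.5 KO and E13.5 WT libraries from top to bottom; bars are listed protocadherin genes, open circles unlisted ones, and triangles other listed genes of the locus. The alpha cluster has more open circles than bars in each library, with 3 neighbouring bars in E15.5 KO, the beta cluster has 1 open circle in E15.5 KO and 1 in E13.5 WT, and the gamma cluster has none.

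At E13.5 the question was which protocadherin genes were listed with and without the Setd2 deletion. Of the 58 genes, 43 were in both libraries and 10 in neither. E13.5 KO alone listed 4 (6.9%): Pcdha3, Pcdha8, Pcdha11 and Pcdhb1. E13.5 WT alone listed 1 (1.72%), Pcdha9. Among protein-coding genes 2.54% were in E13.5 KO only and 2.33% in E13.5 WT only. All of the difference lay in the alpha and beta clusters: 4 of 14 alpha genes and 1 of 22 beta genes differed, and 0 of 22 gamma genes. The E13.5 KO list was also longer over all genes, and the part of list length in the 4 against 1 was not tested.

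Between ages in the KO the question was which of these genes were listed at E15.5 and at E13.5. Of the 58 genes 44 were in both KO libraries and 7 in neither. E15.5 KO alone listed 4 (6.9%), all alpha: Pcdha5, Pcdha9, Pcdha11_2 and Pcdhac2. E13.5 KO alone listed 3 (5.17%): Pcdha3, Pcdha8 and Pcdhb2. Among protein-coding genes 2.03% were in E15.5 KO only and 4.02% in E13.5 KO only. Pcdha11 was the 1 alpha gene in both KO lists. The age and genotype comparisons share the E13.5 KO library, so they are not independent. The alpha cluster held 5 listed genes in E15.5 KO and 3 in E13.5 KO. Of the markers of neurons, 16 of 20 were listed in E15.5 KO and 20 of 20 in each of E13.5 KO and E13.5 WT. Over all protein-coding genes the listed shares were 75.9%, 77.9% and 77.7% in these libraries, in that order. Among the neuron markers missing from E15.5 KO were Dbh of noradrenaline synthesis, and Chat and Slc18a3 of acetylcholine synthesis and storage. Dbh is within reach of the E15.5 WT list and was listed there. The other neuron marker within reach, Th, was listed in both E15.5 libraries. That stretch has 187 annotated genes and the list holds 167 entries, so most genes there were listed. Neural crest and glia markers numbered 9 of 10 in E15.5 KO, without Foxd3, and 10 of 10 at E13.5 in both genotypes. Of the other markers, mesenchyme had 7 of 8 in E15.5 KO, endothelium 4 of 6, and blood and immune cells 4 of 6, and each of these lists was complete in E13.5 KO and E13.5 WT. Markers of each of these cell types were thus listed in every complete library. Which cells gave the protocadherin reads cannot be told from a list, and the part of other cell types in the alpha listings was not tested.

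The exon structure bears on what a listing of an alpha or gamma gene means, because a read in a shared exon fits every gene of the cluster. Each of the 14 alpha genes has 4 separate stretches of exon. They have a median of 2480 exonic bases of their own (494 to 4606), meaning bases that no other gene uses on the same strand, beside a median of 2860 shared bases. Gamma genes have a median of 2630 bases of their own (1570 to 4614) and 2119 shared. Beta genes have a median of 3714 of their own, and 20 of the 22 share none. The ranges of own bases overlap between alpha and gamma genes, and the shared part is longer in the alpha genes by median. The part of exon sharing in the listing of the clusters was not tested. The alpha genes in 1 or 2 lists had 2346 to 4606 bases of their own (median 2481) and those in no list 494 to 2559 (median 2475), so the groups overlap. Pcdha4, with 494, has the fewest: the predicted gene Gm42416, which starts in the alpha cluster and ends in the gamma cluster, covers 2410 of the 2904 bases of its first exon. Pcdha11_2, with 4606, has the most.

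**Figure D4:**
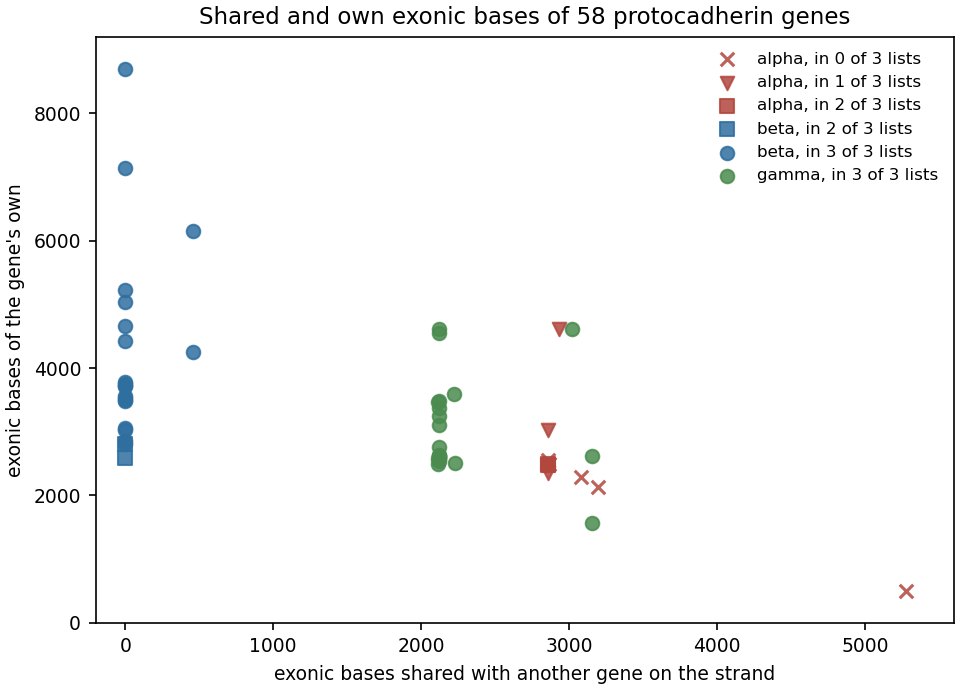
Exonic bases that each of the 58 genes has to itself (vertical axis) against those it shares with another gene on the same strand (horizontal axis), with colour for the cluster and the marker for the number of complete lists that held the gene. Alpha and gamma genes overlap on the vertical axis, the listed and unlisted alpha genes lie together, and Pcdha4 is at the lower right.

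Exact sequence sharing between transcripts was also counted. A window with any difference from those of other genes counted as the gene's own, so similarity short of identity was not measured. Of the distinct 150-base windows in the annotated transcripts of each gene, 150 being the read length in the labels, a median of 46.3% in alpha genes (13.2% to 60.2%) and 57.0% in gamma genes (38.8% to 69.7%) were in no transcript of another gene. In beta genes the share was 93.3% to 100%. The smallest number of such windows was 778, in Pcdha4, so each of the 58 genes has stretches not found unchanged in another gene's annotated transcripts. The shared exons lie at the 3′ end of the transcripts, and where along a transcript these libraries read is not given in the sources used here. Transcripts whose last 50 bases no other gene shares on that strand are annotated for 2 of 14 alpha genes (Pcdha4, in no list, and Pcdha11_2, in E15.5 KO) and for 10 of 22 gamma genes, among them Pcdhga12, Pcdhgb5 and Pcdhgc3. The other 12 gamma genes have no such transcript and were in all 3 lists as well. Elsewhere in the genome, 247 protein-coding genes share at least 40% of their exonic bases with another gene on the strand and keep at least 200 of their own. Of these, 60.3% were in all 3 lists and 21.1% in none. Among the alpha genes the counts were 0 of 14 and 7 of 14. These include Pcdha11_2, which falls outside the 40% rule because 61.1% of its exonic bases are its own. Some gamma genes, such as Pcdhgb5 with 68.5%, fall outside it too. The set of 247 was chosen after seeing the data and was not matched for where along the transcript the shared bases lie. The part of shared 3′ ends in the alpha listings was not tested.

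Genes around the clusters and other genes within the locus were also looked at, and 72.8% of protein-coding genes were in all 3 lists. All 13 protein-coding genes within 200 kb on either side were in the 3 complete lists, from Tmco6 to Zmat2 upstream of the alpha cluster and from Diaph1 to Arap3 downstream of the gamma cluster. Between the beta and gamma clusters, Slc25a2, a mitochondrial ornithine carrier, and Taf7, a subunit of the general transcription factor TFIID, were in all 3 lists. The locus holds 27 annotated genes that are no clustered protocadherins, of which 7 were in all 3 lists, 3 in 1 or 2 and 17 in none. The protein-coding ones are Slc25a2, Taf7 and 3 predicted genes, and the rest are non-coding RNAs and pseudogenes. They are therefore not comparable with the protein-coding genes on either side. Over all annotated genes, 45.8% were in E15.5 KO, 47.4% in E13.5 KO and 45.8% in E13.5 WT, each library on its own rather than all 3 together. Within the alpha cluster 1 of the 6 opposite-strand genes, Gm10544 (37159854 to 37178522), was in all 3 lists and the other 5 in none. Within the gamma cluster 2 of the 5 opposite-strand genes, Gm26672 and BC037039, were in all 3. Gm37165 (37714279 to 37726121) and Gm29994 (37829008 to 37830200) were in E15.5 KO and E13.5 KO and not in E13.5 WT. Among all annotated genes 4.92% were in E13.5 KO and not in E13.5 WT, whether or not they were in E15.5 KO. Among protein-coding genes, which Gm37165 and Gm29994 are not, 1.04% were in both KO lists and not in E13.5 WT. The part of genotype was not tested. Whether the counting used the strand is not given in the sources used here, so reads from an opposite-strand gene and from the protocadherin it overlaps may not have been separated. This touches Pcdhga10, all of whose own exonic bases lie opposite another gene, and several other genes in part. Of the own bases, 1256 of 2637 in Pcdhga11, 1823 of 2594 in Pcdhgb7 and 1821 of 3380 in Pcdhgc3 lie opposite no gene. In Pcdha11_2 this holds for 1268 of 4606. The 3 predicted genes that run from the alpha into the gamma cluster, Gm42416, Gm37013 and Gm37388, have no exonic base of their own on their strand and were in no list.

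The non-clustered protocadherins, single genes with related extracellular parts, were listed more evenly than the alpha cluster. All 12 (Pcdh1, Pcdh7 to Pcdh10, Pcdh11x, Pcdh12, Pcdh15 and Pcdh17 to Pcdh20) were in E13.5 KO and E13.5 WT, and 11 of 12 in E15.5 KO. The protein-coding shares in these libraries were 77.9%, 77.7% and 75.9%. The 1 not listed in E15.5 KO was Pcdh12 (38267089 to 38284402, chromosome 18), a protocadherin of endothelial cells. Of the 6 endothelial markers, Cdh5 and Tie1 were also not listed in that library, and Pecam1, Kdr, Tek and Egfl7 were listed. Any link between Pcdh12 and these markers was not tested.

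All but 1 of the genes looked at for promoter choice and silencing in the clusters were in the 3 complete lists, beside 72.8% of protein-coding genes. Of 27, among them Ctcf, the cohesin subunits Rad21, Smc1a and Smc3, the cohesin release factor Wapl, the repressors Smchd1 and Setdb1, and the DNA methyltransferases Dnmt1, Dnmt3a and Dnmt3b, 26 were in E15.5 KO and all 27 in E13.5 KO and E13.5 WT. The exception was Dnmt3l, a cofactor of DNA methylation that was not listed in E15.5 KO. It is the 1 gene of this group within reach of the E15.5 WT list and was not listed there. Beside the same 72.8%, all 7 histone H3 lysine 36 methyltransferases (Setd2, Nsd1, Nsd2, Nsd3, Ash1l, Setmar and Smyd2) were in the 3 complete lists. So were all 23 partners, proteases and signalling genes. They include the kinases Ptk2 and Ptk2b that protocadherin tails inhibit, Adam10 and the gamma-secretase subunit Ncstn, which take part in cleaving the proteins, the WAVE complex members Wasf1, Cyfip1 and Nckap1, and Axin1.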

How the data were processed

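The authors deposited 1 gene list per library, with an Ensembl identifier and a symbol per line, no header and no measured value. What can be read from them is if a gene is listed or not. Per the submitters' processing notes, Seurat and the build mm10 were used. No aligner, annotation release, filter or listing rule is given in the sources used here. A list grows with cells and reads, which are unknown.

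Genes were matched by identifier to the GENCODE M21 mouse annotation, which is on GRCm38 (mm10). All 51 listed clustered protocadherins matched. Exonic bases were the union over annotated transcripts. Windows of 150 bases were compared for exact matches over all annotated transcripts, not the genome. RefSeq coordinates were those on GRCm38.p6. Counting and exon sharing were tested on simulated lists. No test, p-value or interval between groups was possible with 1 library per group. Python 3.11.15, pandas 2.3.3 and NumPy 2.4.6 were used.

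The genes and gene lists were chosen with earlier results of these data known. By the naming rule, protocadherins missing from any complete list are named with coordinates and the others by cluster, and members of the other lists are named where they differ or as examples. A gene that this rule would name is not reported here. Clusters, listed genes and the genes of the locus were described as they stand. The background of other genes with shared exons and the RefSeq comparison were chosen after seeing the data.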

Additional observations from a re-analysis of the deposited data

How the results depend on the processing

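Of 200 recounts, which took 40 counts (by library, comparison, number of lists and cluster) under 5 other member rules, 195 stayed within 1.5 times the first value. The rules were matching by identifier, merging Pcdha11_2 with Pcdha11 (57 genes), protein-coding genes only, at least 200 exonic bases shared with no gene on either strand, and adding the 7 other same-strand genes inside a cluster. The last rule gave the 5 exceptions. The other rules changed few or no members and the counts are nested, so most recounts could hardly move. With the added genes, which are pseudogenes and non-coding RNAs, 13 genes in all, 2 in beta and 1 in gamma were in no list, and 1 gamma entry, a snoRNA, was in E15.5 KO only, so that 1 was in 1 or 2 lists.

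The background moved with the genes counted. Among protein-coding genes in at least 1 complete list, 93.1% were in E15.5 KO, 95.6% in E13.5 KO and 95.3% in E13.5 WT; 3.12% were in E13.5 KO only and 2.86% in E13.5 WT only, and 2.5% in E15.5 KO only and 4.93% in E13.5 KO only. Among all annotated genes the shares were 45.8%, 47.4% and 45.8%, then 4.92% and 3.35%, and 3.77% and 5.32%, in the same order. Among other protein-coding genes with shared exons, a choice made after seeing the data, they were 68.8%, 70.9% and 70.0%, then 5.67% and 4.86%, and 6.07% and 8.1%. In each library the listed share of the alpha cluster lay below each of these library shares and that of the gamma cluster above. The cluster shares are over all annotated members, whereas the first background holds only genes in at least 1 complete list. Of the 7 alpha genes in any complete list, 5 were in E15.5 KO, 3 in E13.5 KO and 1 in E13.5 WT. No paired analysis was possible because the groups hold 1 library each, and for the same reason no library was left out. Depth is unknown, so an unlisted gene may have been missed.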

Other observations

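The Ugt1a genes, which make enzymes of bilirubin and drug conjugation, form another cluster in which each gene joins its own first exon to shared last exons. They were looked at after the protocadherin values were seen. Of 9 annotated Ugt1a genes on chromosome 1, 5 were in at least 1 complete list, 1 was in all 3 and 4 in none. Over all protein-coding genes, 72.8% were in all 3 and 18.5% in none. E15.5 KO listed 4 of the 9, E13.5 KO 2 and E13.5 WT 2, beside protein-coding shares of 75.9%, 77.9% and 77.7%. Ugt1a7c was in all 3 lists and has 1915 exonic bases of its own. Ugt1a6a, with 2142, was in E15.5 KO and E13.5 KO, and Ugt1a1 and Ugt1a2, with 913 and 900, were in E15.5 KO alone. Ugt1a6b, with 938, was in E13.5 WT alone. Those in no list were Ugt1a10, with 949, Ugt1a9, with 879, Ugt1a8, with 909, and Ugt1a5, with 892. Their own bases thus overlap those of the listed genes.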
